A study of Mus musculus with 22 samples.

Results

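The cerebellum of a mouse goes on maturing after weaning, and its transcripts were compared here between wild-type females of 9 to 12 weeks and of 4 weeks. They were the wild-type controls of the Sca1 line, whose knock-in mice carry a lengthened CAG repeat in Atxn1, on C57BL/6J after 5 to 8 generations of backcrossing. The 4-week group held 3 mice. The older group held 3, with replicate 4 aged 9 weeks and replicates 5 and 6 aged 12 weeks. These 6 arrays were chosen by genotype and age from 22 in the series, and each array measured total cerebellar RNA of 1 mouse. The 6 knock-in mice of the same ages, females on the same background, entered the fit to share its estimate of spread and served as a separate set of mice for the same age comparison. The labels name no treatment.

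By 4 weeks the cerebellar layers have formed and granule cell production has ended, while myelin, blood vessels and synapses are still being refined. Oligodendrocytes make the lipids and proteins of myelin in quantity while sheaths are being laid down, and much of the cholesterol in brain is made in the tissue itself for that purpose. Basement membranes of vessels and meninges, built of collagens, laminins and nidogen, are also laid down during growth. In whole tissue, fewer cells of a type and less RNA per cell cannot be told apart.

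All values are deposited probe set levels on a log2 scale, where a difference of 1 is a doubling, and differences are older minus younger. Array medians ran from 6.08 to 6.21 over the 12 mice. The tissue label was checked against defining markers. The Purkinje cell genes Pcp2 and Calb1, the granule cell gene Gabra6, the granule cell secreted factor Cbln1 and the glial glutamate transporter Slc1a3 read 12.06 to 14.02 in the wild-type mice. Neurod6, a gene of forebrain pyramidal neurons, read 3.45 to 4.04. None of these 6 genes passed the test for age. The female transcript Xist read 10.36 to 11.25, and the Y-linked Kdm5d, Uty and Eif2s3y read at most 3.34. The probe set of Atxn1 itself read 2.56 to 2.73, under the filter on dim probe sets, so it was not tested.

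The genes that were lower at 9 to 12 weeks included enzymes and proteins of myelin, 2 collagens, and proteins of immature glia and growing neurites. Those that were higher were a more mixed set, led by the cytokine Il33 and the interferon-induced Ifit3. The largest falls were in Col3a1, 6.43-fold, and Col4a2, 4.86-fold, and the largest rise was in Il33, 4.89-fold. Of 9452 genes tested, 41 passed in limma at a Benjamini-Hochberg adjusted p under 0.05 (0.434%), of which 19 were higher (0.201%) and 22 lower (0.233%) in the older mice. At an unadjusted p under 0.05 there were 1199 of the 9452 genes, 784 higher and 415 lower, where 5% of the genes tested is 473. Counts of list members at that threshold are to be read against these. Over all genes the median difference was 0.04, with 5957 genes above 0 and 3492 below. In 1365 genes (14.4%) all 3 older mice lay above all 3 younger mice, and in 618 (6.54%) they lay below. The count of 41 rested on few mice: without wild-type replicate 1 or without wild-type replicate 3 no gene passed in limma, with 957 and 742 genes at an unadjusted p under 0.05. Dropping wild-type replicate 4 left 13 genes, dropping replicate 5 left 9 and dropping replicate 6 left 11, while dropping wild-type replicate 2 gave 58. Dropping knock-in replicate 4, which bears on the spread alone, gave 65.

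**Figure D1:**
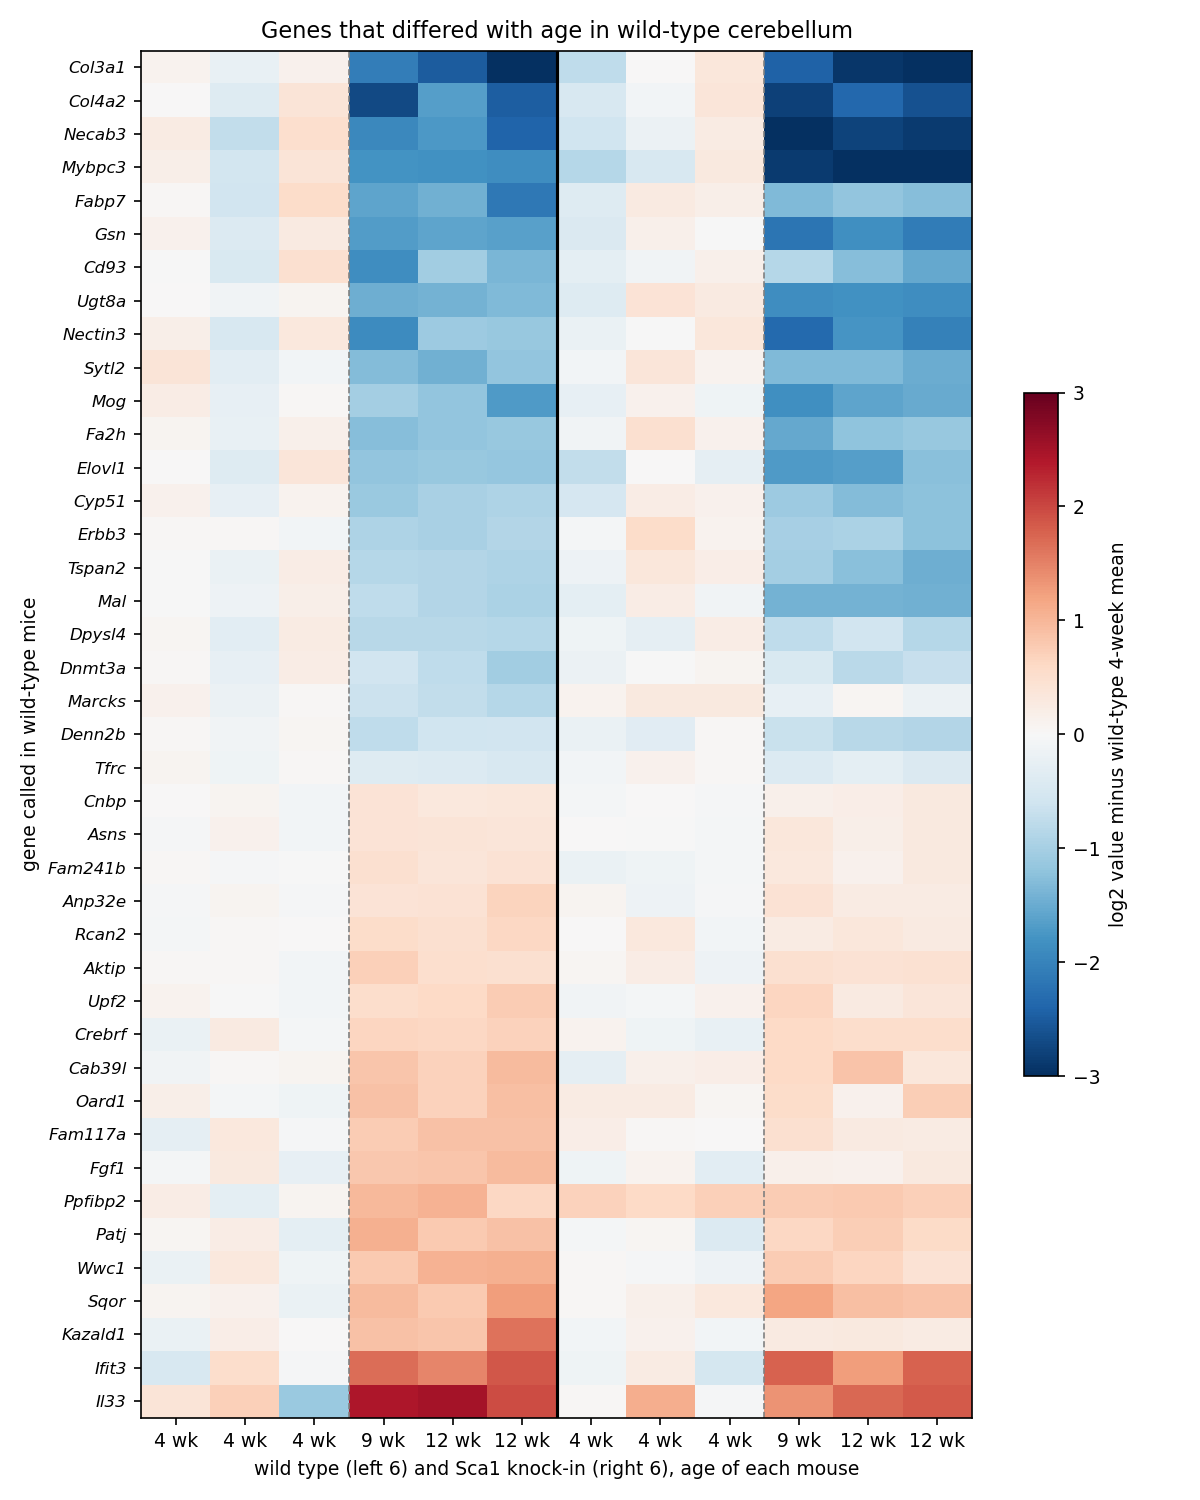
Heat map of the 41 genes that passed in wild-type mice (rows, largest fall at the top) in each of 12 mice (columns, labelled by age), as the log2 value minus the mean of the 3 wild-type mice at 4 weeks. Wild-type mice are left of the solid line and Sca1 knock-in mice right of it, and dashed lines part 4 weeks from the older ages. The 22 lower genes are blue and the 19 higher genes red in all 3 older wild-type mice, with the deepest blue in Col3a1.

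Myelin genes made up the largest group among the falls. Ugt8a, the galactosyltransferase that makes the main galactolipid of myelin, read 11.30, 11.18 and 11.38 in the 4-week mice, 9.83 in the 9-week mouse, and 9.87 and 9.97 in the 12-week mice. The 2 age groups were far apart, and the 9-week mouse lay with the 12-week mice. Ugt8a fell by 1.40 ± 0.16 (SE, n = 3 each, limma adjusted p = 0.00617). Fa2h, the hydroxylase that supplies the 2-hydroxy fatty acids of the same lipids, read 10.43, 10.12 and 10.49 at 4 weeks, 9.06 at 9 weeks, and 9.17 and 9.21 at 12 weeks, and fell by 1.20 ± 0.15 (adjusted p = 0.00998). Its groups did not overlap either. Gsn, the actin-severing protein gelsolin, which is abundant in oligodendrocytes, read 11.48, 10.94 and 11.61 at 4 weeks, 9.67 at 9 weeks, and 9.77 and 9.72 at 12 weeks. It fell by 1.62 ± 0.18 (adjusted p = 0.00617), and the older mice differed among themselves by far less than the younger.

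Proteins of the sheath fell as well, by different amounts. Mog, a glycoprotein of the outermost myelin surface, read 10.16, 9.69 and 9.99 at 4 weeks, 8.93 at 9 weeks, and 8.76 and 8.25 at 12 weeks, and fell by 1.30 ± 0.18 (adjusted p = 0.00998). Mal, a proteolipid that sorts lipids and proteins to the myelin membrane, fell by 0.87 ± 0.12 (adjusted p = 0.00998) from 12.13 to 12.46 at 4 weeks to 11.33 to 11.52 in the older mice. Tspan2, a tetraspanin of oligodendrocytes, fell by 0.89 ± 0.14 (adjusted p = 0.0222). Other sheath proteins did not pass: Mbp was at -0.37 (adjusted p = 0.130), Cnp at -0.40 (0.126) and Mobp at -0.50 (0.133). Cldn11, the tight junction protein of myelin, was at -1.36 (0.0537), a larger difference than that of Mog. In each of these 4 genes the older mice lay below the younger mice without overlap.

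Of 26 myelin genes tested in limma, 6 fell and 0 rose (14 lower and 4 higher at an unadjusted p under 0.05), and the median difference was -0.44 against 0.04 over all genes, with 20 members below 0 and 6 above. The age groups did not overlap in 14 members that were lower and 5 that were higher in the older mice, against 6.54% and 14.4% of all genes. The 5 were Car2 (0.29), Apod (0.29), Qdpr (0.31), Plekhb1 (0.45) and Evi2a (0.46), none of which passed. Car2 is a carbonic anhydrase and Apod a lipid-carrying lipocalin, both found in mature oligodendrocytes. The members thus differed among themselves: the lipid enzymes Ugt8a and Fa2h and the surface protein Mog were lower by more than 1, while Septin4 (-0.003) and Cryab (-0.007) were near 0. The mean over the 26 genes was 10.22 to 10.39 at 4 weeks and 9.79 to 9.90 in the older mice.

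A further 3 of the 22 falls lay outside the lists. Elovl1, the elongase of very long saturated and monounsaturated fatty acids, fell by 1.16 ± 0.22 (adjusted p = 0.0433), with 7.35 to 8.10 at 4 weeks and 6.56 to 6.60 in the older mice. Erbb3, a neuregulin receptor, fell by 0.93 ± 0.15 (adjusted p = 0.0243). Tfrc, the transferrin receptor that takes up iron, fell by 0.43 ± 0.08 (adjusted p = 0.0473). Of 15 genes of oligodendrocyte precursors and newly formed oligodendrocytes, 14 lay below 0 and none passed (4 at an unadjusted p under 0.05), with a median of -0.20 that was -0.09 without wild-type replicate 3. The members with the smallest p were Sox10 (-0.83), Cspg4 (-0.49), Olig1 (-0.45) and Olig2 (-0.70), at adjusted p from 0.115 to 0.357. Sox10, Olig1 and Olig2 are transcription factors that set oligodendrocyte identity, and their share in the differences of the myelin genes was not tested.

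**Figure D2:**
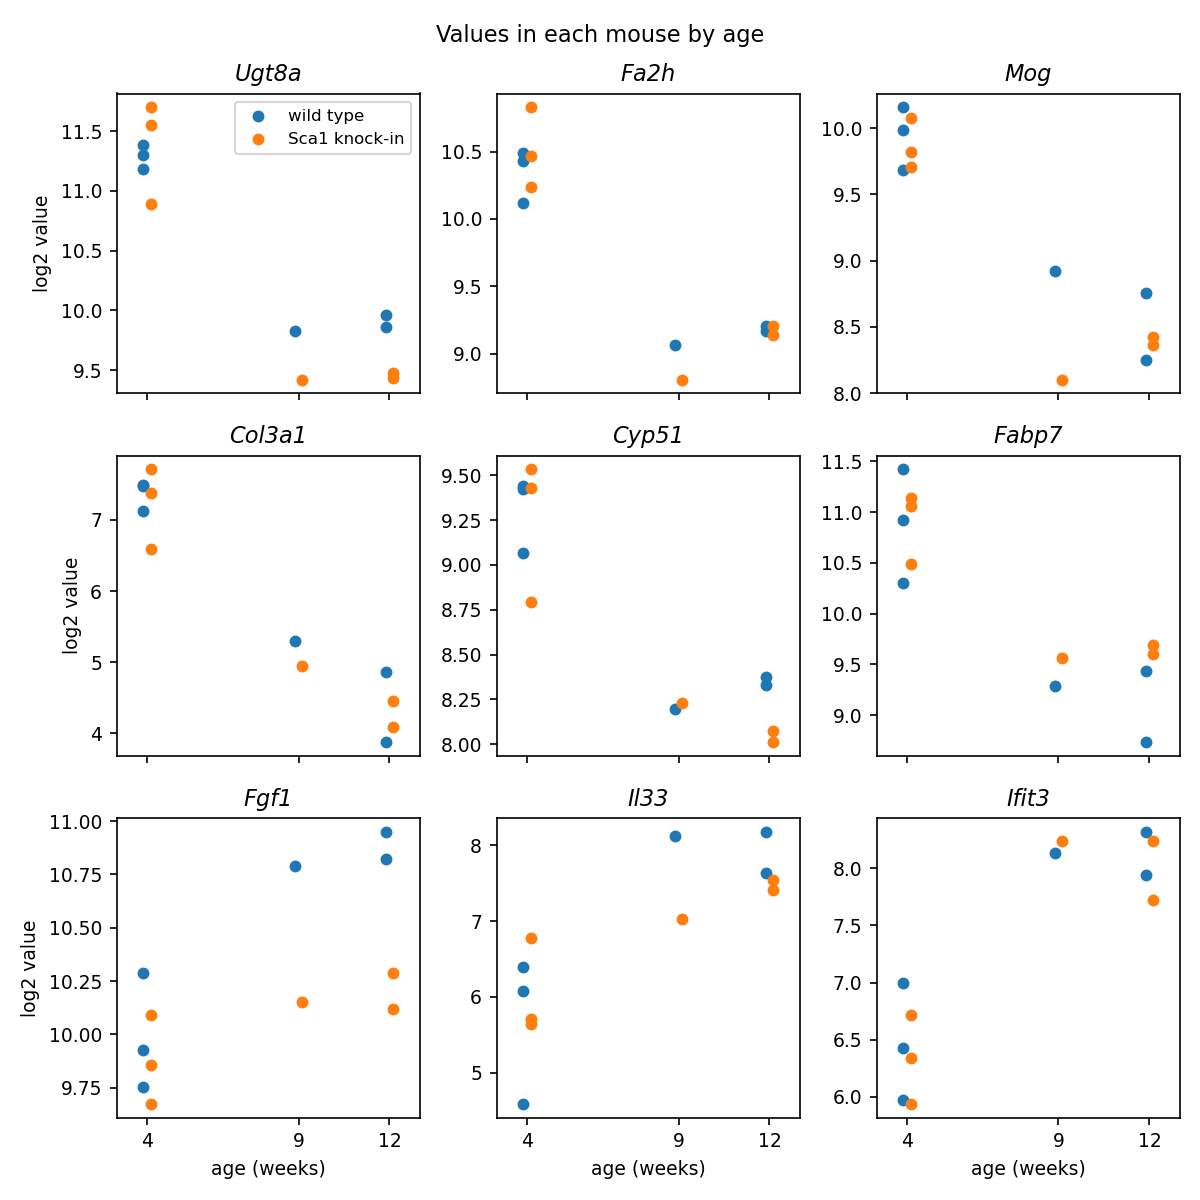
Log2 value in each mouse against age in weeks for 9 genes, with wild-type mice in blue and Sca1 knock-in mice in orange (3 mice of each genotype at 4 weeks, 1 at 9 and 2 at 12). In wild-type mice Ugt8a, Fa2h, Mog, Col3a1, Cyp51 and Fabp7 are lower, and Fgf1, Il33 and Ifit3 higher, at 9 and at 12 weeks than in any 4-week mouse.

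All 20 measured members of the cholesterol synthesis list lay below 0. The median was -0.41, and the older mice lay below the younger without overlap in 11, against 6.54% of all genes. Only Cyp51, the lanosterol demethylase, passed: it read 9.44, 9.06 and 9.42 at 4 weeks, 8.20 at 9 weeks, and 8.33 and 8.38 at 12 weeks, and fell by 1.01 ± 0.17 (adjusted p = 0.0317). Hmgcs1, the synthase that makes HMG-CoA at the head of the pathway, read 12.29, 11.95 and 12.26, then 11.23, and 11.29 and 11.37, a difference of -0.87 ± 0.18 (adjusted p = 0.0662). Sqle, the squalene epoxidase, was at -1.18 and Dhcr7, which makes cholesterol in the last step, at -0.94 (adjusted p = 0.115 for both). Idi1 (-0.55), Fdps (-0.62), Sc5d (-0.35) and Msmo1 (-0.40) were separate between ages as well. Srebf2, the transcription factor that drives the pathway, was at -0.57 (adjusted p = 0.375). Its relative Srebf1, outside the list, went the other way, at 0.50 (adjusted p = 0.106). In the mean of both genotypes' age differences, described below, Srebf1 was higher by 0.49 (limma adjusted p = 0.00536). Members near 0 were Tm7sf2 (-0.07), Cyp46a1 (-0.09), which hydroxylates cholesterol for export from neurons, and Ebp (-0.10). The list's mean was 8.24 to 8.60 at 4 weeks and 7.93 to 8.08 in the older mice.

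**Figure D3:**
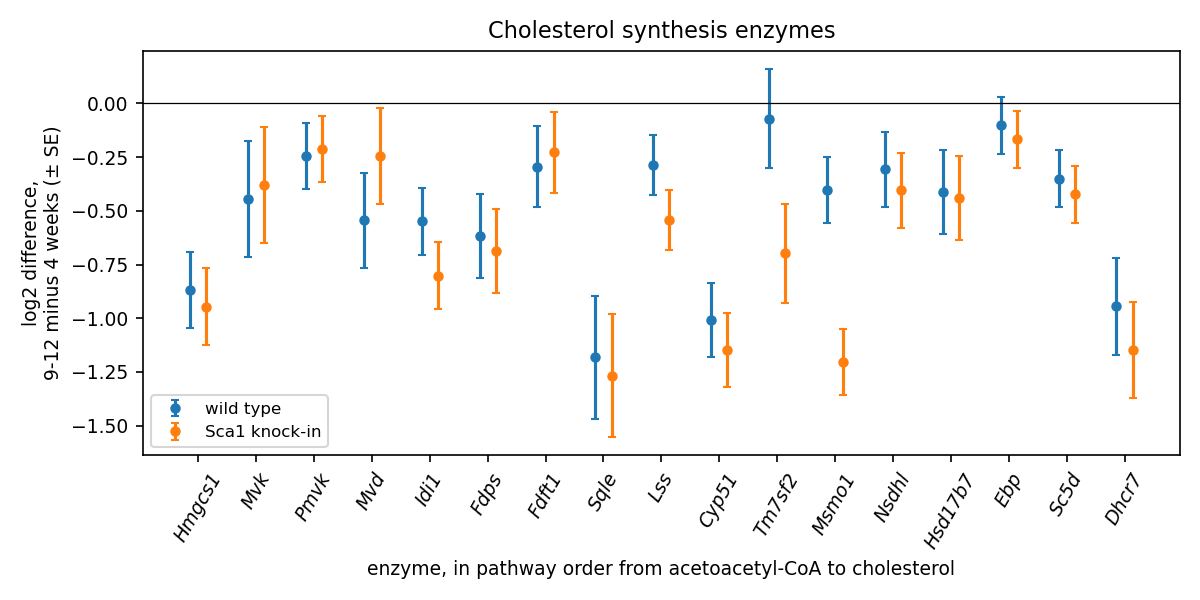
Difference between 9-12 and 4 weeks on the log2 scale (vertical axis, ± SE) for 17 enzymes of cholesterol synthesis in pathway order (horizontal axis), in wild-type (blue) and Sca1 knock-in mice (orange). Every point is below 0, and in wild-type mice the lowest are Sqle, Cyp51, Dhcr7 and Hmgcs1.

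These genes are known to be driven by sterol regulatory element binding proteins, so their promoters were searched for the sterol regulatory element TCACCCCAC on both strands, from 250 bases before to 50 after the gene start in RefSeq (GRCm38.p6). Of the 16 members with a RefSeq promoter, 1 held it, and 0.551% of 32851 promoters did. A member counted if any of its promoters held the element, while the share counts single promoters. That member was Hmgcs1, whose promoter on the plus strand at chr13:119690101-119690400 is shown with the element in capitals, starting 137 bases before the gene start.
Hmgcs1: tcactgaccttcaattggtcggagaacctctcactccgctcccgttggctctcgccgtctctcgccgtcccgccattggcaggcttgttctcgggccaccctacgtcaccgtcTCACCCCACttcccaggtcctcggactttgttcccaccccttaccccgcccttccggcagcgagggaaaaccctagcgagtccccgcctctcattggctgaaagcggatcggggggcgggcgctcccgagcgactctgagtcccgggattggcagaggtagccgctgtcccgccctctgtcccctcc
The absence of these 9 letters from the other windows says nothing about binding there.

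The deepest falls were in collagens. Col3a1, a fibrillar collagen of meninges and vessel walls, read 7.47, 7.13 and 7.50 at 4 weeks, 5.30 at 9 weeks, and 4.87 and 3.88 at 12 weeks. It fell by 2.68 ± 0.36 (adjusted p = 0.00998), and the 9-week mouse lay between the ages. Col4a2, a chain of the basement membrane collagen, read 7.70, 7.29 and 8.07 at 4 weeks, 4.98 at 9 weeks, and 6.04 and 5.21 at 12 weeks, and fell by 2.28 ± 0.29 (adjusted p = 0.00998). A dim second probe set of Col3a1, at a mean of 2.89, was at 0.04. The list's other members with the smallest p were Nid1 (nidogen, -1.04, adjusted p = 0.0793) and Col6a1 (-1.12, adjusted p = 0.114). Col4a1 (-0.90), Col1a2 (-0.87), Col1a1 (-1.56) and Lamc1 (-0.93) were lower in every older mouse than in any younger mouse without passing.

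Of 31 members 2 fell, 21 lay below 0 and 10 above, and the median of -0.32 became -0.17 without wild-type replicate 1 and -0.19 without wild-type replicate 3. The members above 0 included Col5a1 (0.42) and P4ha2 (0.44), a collagen prolyl hydroxylase. Markers of the cells that make these proteins were set beside them. Of 22 genes of meningeal fibroblasts, a list that also holds Col1a1, Col1a2 and Col3a1, 15 lay above 0 and 7 below, with a median of 0.13 and list means of 6.60 to 6.73 at 4 weeks and 6.49 to 6.57 later. Of 23 endothelial and mural genes 16 lay below 0, with a median of -0.10 that was -0.04 without wild-type replicate 3, and none passed in limma (8 at an unadjusted p under 0.05). The endothelial lectin-like receptor Cd93, which was in no list, fell by 1.42 ± 0.26 (adjusted p = 0.0432), and its second, dim probe set was at 0.01. The part of meningeal and endothelial RNA in the collagen differences was not tested.

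Of the lists described, the choroid plexus list had the highest median. This epithelium of the ventricles is easily carried along with a dissected cerebellum. All 14 members lay above 0 with a median of 0.66, and none passed in limma (4 at an unadjusted p under 0.05). In 6 the older mice lay above the younger without overlap, against 14.4% of all genes. The members with the smallest p were Cldn2 (1.45), a pore-forming claudin, Kcne2 (1.38), a potassium channel subunit, Slc4a5 (0.64), a bicarbonate transporter, and Col8a1 (0.36), at adjusted p from 0.0783 to 0.375. The list's mean was 6.19 to 6.47 at 4 weeks, 6.68 at 9 weeks, and 7.20 and 7.23 at 12 weeks. The most abundant member, Ttr, which carries thyroid hormone, was at 0.14 (14.91 to 15.26 over the wild-type mice), and Igfbp2 at 0.27. Any part of attached choroid plexus in the values of other genes was not tested.

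A pair of genes of immature glia and neurite growth fell. Fabp7, the lipid-binding protein of radial glia that Bergmann glia keep into adulthood, read 10.92, 10.30 and 11.42 at 4 weeks, 9.29 at 9 weeks, and 9.44 and 8.74 at 12 weeks, and fell by 1.73 ± 0.26 (adjusted p = 0.0202). Marcks, a membrane protein of growth cones that binds actin and is phosphorylated by protein kinase C, read 11.82, 11.53 and 11.74 at 4 weeks, 11.05 at 9 weeks, and 10.97 and 10.83 at 12 weeks, and fell by 0.75 ± 0.10 (adjusted p = 0.00998). Both genes were separate between ages. Marcksl1, a relative of Marcks, was at -0.92 (adjusted p = 0.0743) and the adhesion molecule Ncam1 at -0.31 (0.196). Of 27 members of this list 2 fell and 21 lay below 0, with a median of -0.19, while the tubulin Tubb3 was at 0.56 with separate groups.

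More falls lay outside the lists. Necab3, a calcium-binding protein, fell by 2.02 ± 0.36 (adjusted p = 0.0388), from 8.45 to 9.69 at 4 weeks to 6.79 to 7.46 later. Mybpc3, a myosin-binding protein best known from heart muscle, fell by 1.82 ± 0.29 (adjusted p = 0.0202), with 9.64 to 10.58 at 4 weeks and 8.33 to 8.41 later. Nectin3, an adhesion molecule of cell junctions, fell by 1.37 ± 0.25 (adjusted p = 0.0432), and Sytl2, an effector of Rab27 in vesicle traffic, by 1.31 ± 0.17 (adjusted p = 0.00998). The remaining falls were Dpysl4 (-0.84), a collapsin response mediator, the de novo DNA methyltransferase Dnmt3a (-0.80) and Denn2b (-0.64).

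Apart from Il33 and Ifit3 the rises were of 1.11 or less, and of all 19 only Ifit3 belonged to a list described here. Il33, an alarmin cytokine held in the nucleus of glia, read 6.08, 6.40 and 4.59 at 4 weeks, 8.12 at 9 weeks, and 8.18 and 7.64 at 12 weeks. The 4-week mice differed widely among themselves, yet all lay below the older mice, and Il33 rose by 2.29 ± 0.41 (adjusted p = 0.0413). Fgf1, a growth factor without a signal peptide that is made by neurons, read 9.93, 10.29 and 9.75 at 4 weeks, 10.79 at 9 weeks, and 10.82 and 10.95 at 12 weeks, and rose by 0.86 ± 0.13 (adjusted p = 0.0202). Patj, a scaffold of tight junctions and cell polarity, rose by 0.91 ± 0.14 (adjusted p = 0.0202). Wwc1, the Hippo pathway protein KIBRA, rose by 0.97 ± 0.15, and Sqor, which oxidises sulfide in mitochondria, by 0.99 ± 0.15 (adjusted p = 0.0202 for both).

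Some rises were in dim probe sets. Kazald1, a secreted protein with a Kazal domain, read 2.79, 3.16 and 2.98 at 4 weeks, 3.85 at 9 weeks, and 3.81 and 4.60 at 12 weeks, so its rise of 1.11 ± 0.18 (adjusted p = 0.0209) began near the filter value of 2.80. Ppfibp2, liprin beta-2, rose by 0.87 ± 0.14 (adjusted p = 0.0254) from 4.10 to 4.62 up to 5.03 to 5.44. Oard1, an ADP-ribose hydrolase, rose by 0.82 ± 0.16 (adjusted p = 0.0473). The other rises were Fam117a (0.84), the LKB1 scaffold Cab39l (0.82), Crebrf (0.66), the nonsense-mediated decay factor Upf2 (0.63), Aktip (0.57), the calcineurin regulator Rcan2 (0.54), the histone chaperone Anp32e (0.51), Fam241b (0.43), asparagine synthetase Asns (0.39) and Cnbp (0.35).

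Ifit3, an RNA-binding protein induced by interferon, read 5.98, 6.995 and 6.42 at 4 weeks, 8.13 at 9 weeks, and 7.94 and 8.32 at 12 weeks, and rose by 1.66 ± 0.26 (adjusted p = 0.0202). Among 15 genes of antigen presentation and the interferon response it alone passed. The list lay above 0 in 14 members, with a median of 0.15 that was 0.05 without wild-type replicate 6. B2m, the light chain of class I molecules, was at 0.38 and Tapbp, which loads peptide onto them, at 0.33, while Stat2, a transducer of the interferon signal, was at -0.24, at adjusted p from 0.172 to 0.269. The core of the interferon-stimulated response element, GAAANNGAA on either strand, was found in the RefSeq promoters of 5 of 12 members (B2m, Gbp2, Ifit3, Ifitm3 and Stat2) and in 8.56% of 32851 promoters. Here too members were counted by gene and the share by single promoter. The Ifit3 promoter, on the plus strand at chr19:34583279-34583578 (GRCm38.p6), is shown because it held the core at 3 places, in capitals, which start 155, 121 and 102 bases before the gene start.
Ifit3: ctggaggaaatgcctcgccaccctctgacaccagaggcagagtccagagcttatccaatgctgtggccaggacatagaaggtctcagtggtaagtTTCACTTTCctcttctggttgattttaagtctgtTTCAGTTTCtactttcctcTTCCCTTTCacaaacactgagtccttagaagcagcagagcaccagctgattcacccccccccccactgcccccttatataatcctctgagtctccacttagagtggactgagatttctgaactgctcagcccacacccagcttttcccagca
The motif is a match of letters, and the data hold no measure of binding to it. Stat2 held it too and lay below 0.

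**Figure D4:**
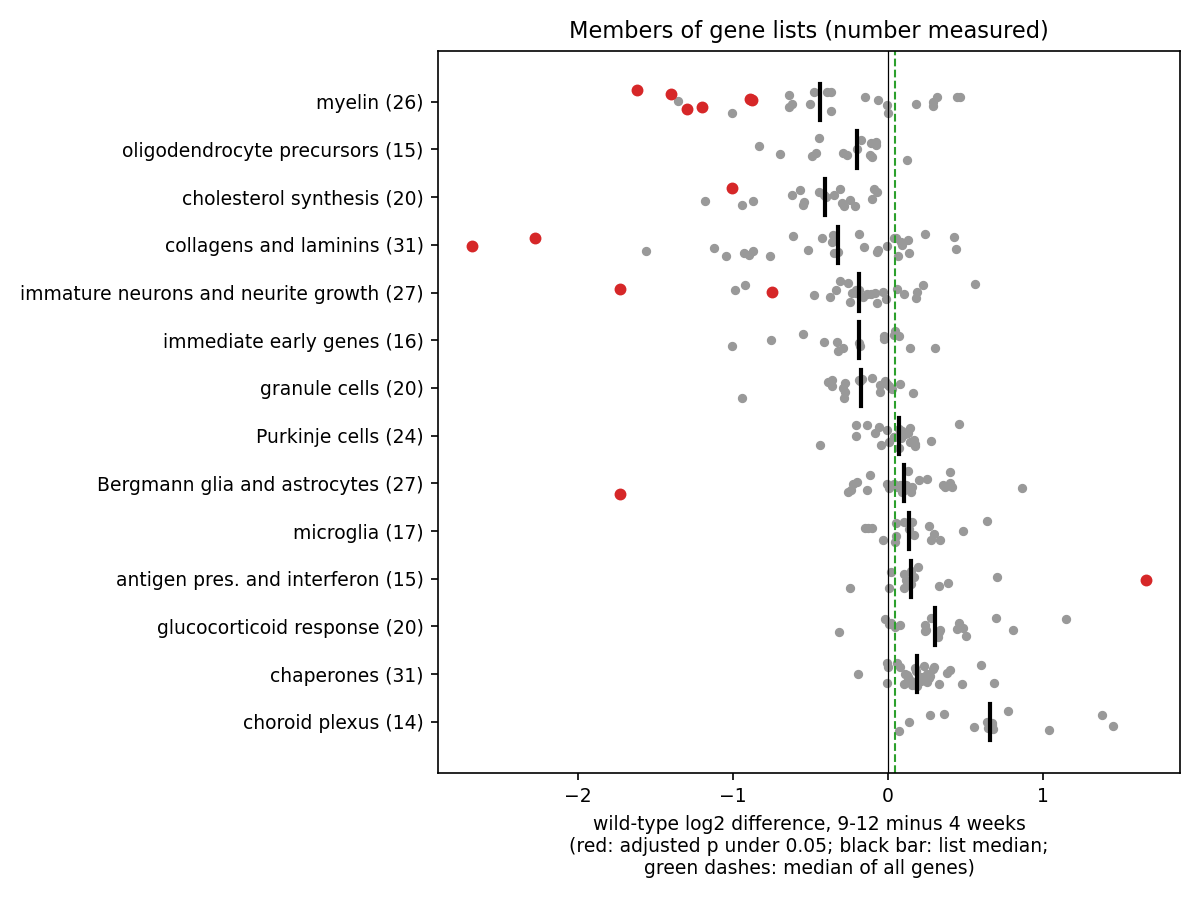
Log2 difference between 9-12 and 4 weeks in wild-type mice (horizontal axis) for the tested members of 14 gene lists (rows, number of members in brackets). Red points passed at an adjusted p under 0.05, black bars are list medians and the green dashed line is the median of all genes. The lowest medians are those of myelin, cholesterol synthesis and collagens and laminins, and the highest is that of the choroid plexus.

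Among genes of the mature cerebellar neurons and astroglia, few passed. Here and in the lists that follow, counts above 0 stand beside 63.0% of all genes above 0. Counts at an unadjusted p under 0.05 in limma stand beside 1199 of 9452 genes, 784 higher and 415 lower. Of 24 Purkinje cell genes none passed in limma (3 at an unadjusted p under 0.05), the median was 0.07 with 16 above 0, and the members with the smallest p were Plcb3 (0.46), Itpka (0.28), Ppp1r17 (0.17) and Stk17b (0.17). Of 20 granule cell genes 16 lay below 0 and none passed (6 at an unadjusted p under 0.05), with a median of -0.17 that was -0.10 without the 9-week wild-type mouse. Calb2 (-0.36), Neurod1 (-0.36) and Nrep (-0.28) were separate between ages at adjusted p from 0.115 to 0.154. Zic2, a transcription factor kept by granule cells from their progenitors, was at -0.94 (adjusted p = 0.347). Of 27 genes of Bergmann glia and astrocytes Fabp7 alone passed and 19 lay above 0, among them Gjb6 (0.87), a gap junction protein, Vim (0.40) and Clu (0.41), with separate groups. Microglial genes had 13 of 17 above 0, none passing (2 at an unadjusted p under 0.05), and a median of 0.14, which was 0.05 without the 9-week wild-type mouse. C1qa, a chain of the complement protein that tags synapses, led them at 0.64 ± 0.13 (adjusted p = 0.0565).

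Lists that respond to hormones, stress, hour and activity held no gene that passed. Of 20 glucocorticoid-responsive genes 18 lay above 0 (3 at an unadjusted p under 0.05 in limma), with Tsc22d3 (0.51), Zbtb16 (1.15), Pdk4 (0.80) and Fkbp5 (0.70) at the smallest p. Their median of 0.30 was 0.15 without wild-type replicate 1 and 0.17 without the 9-week mouse, and the list's mean in replicate 1, 7.43, was the lowest of the 6. Of 31 chaperones 27 lay above 0, with a median of 0.18 (6 at an unadjusted p under 0.05). The members with the smallest p were Dnajb4 (0.27), Dnajc3 (0.48), Hspa9 (0.21) and Hspb8 (0.38). Of 19 circadian genes 12 lay above 0 (63.2%, against 63.0% of all genes) and 7 below, with a median of 0.14. An unadjusted p under 0.05 in limma was seen in 5 of them, with Per2 at 1.29 and Bhlhe40 at 0.66 (adjusted p = 0.127 and 0.115). Of 16 immediate early genes 11 lay below 0 and 5 above, and 4 had an unadjusted p under 0.05 in limma. Nr4a2 (-0.76), Dusp1 (-0.41) and Fos (-1.01) were separate between ages.

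Of 40 genes of synaptic vesicles and release 33 lay below 0 with a median of -0.10, and none passed. An unadjusted p under 0.05 in limma was seen in 5, against 1199 of all 9452 genes, with Syt12 (-0.49) and Syn2 (-0.58) at the smallest p. Of 71 subunits of oxidative phosphorylation none passed (2 at an unadjusted p under 0.05) and the median was -0.02, a value that turned above 0 without wild-type replicate 3 or 5. Of 13 genes of the insulin-like growth factor pathway none passed (2 at an unadjusted p under 0.05), with Igf1 at 0.07, Igf2 at -0.30 and Igfbp7 at -0.53. Of 26 cell cycle genes 20 lay above 0 and none passed (6 at an unadjusted p under 0.05), led by Mcm5 (0.89, adjusted p = 0.0682), a subunit of the replicative helicase.

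The knock-in mice gave the same comparison in 6 other animals, which share no array with the wild-type comparison but do share its estimate of spread. All 41 genes had the same sign there, against 70.0% of all genes, and in 39 of them the older and younger knock-in mice did not overlap. The older knock-in mice lay below the younger in all 22 falls, against 7.91% of all genes, and above them in 17 of the 19 rises, against 9.16%. Of the 41, 23 passed in knock-in mice as well, 18 lower and 5 higher. Over all genes 110 passed in knock-in mice, 31 higher (0.328%) and 79 lower (0.836%), and with each array centred on its median the split was 64 higher and 65 lower. The knock-in count dropped to 72 when knock-in replicate 2 was left out, to 23 for replicate 3 and to 32 for replicate 6. Dropping wild-type replicate 3 gave 73, replicate 5 gave 60 and replicate 6 gave 66. Of the 110, 109 had the same sign in wild-type mice. The myelin genes went the same way, with 12 of 26 lower and a median of -0.74, and Mal fell by 1.37 and Ugt8a fell by 1.94 in knock-in mice (adjusted p = 0.000332 for both). Cholesterol synthesis had 5 of 20 lower with all 20 below 0, collagens 8 of 31 lower, and the choroid plexus 2 of 14 higher with all 14 above 0. Other lists had medians of the opposite sign in the 2 genotypes, and none of these differences was tested over the list. Of 24 Purkinje cell genes 6 lay above 0 in knock-in mice, against 16 in wild type, with a median of -0.08. Of 17 microglial genes 6 lay above 0 against 13 in wild type, of 22 meningeal fibroblast genes 8 against 15, and of 27 genes of Bergmann glia and astrocytes 13 against 19. Of 71 oxidative phosphorylation genes 49 lay above 0 against 25 in wild type. Over all 9452 genes 5115 lay above 0 in knock-in mice and 5957 (63.0%) in wild type, so the share over all genes was lower in knock-in mice too. The oxidative phosphorylation list went the other way.

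**Figure D5:**
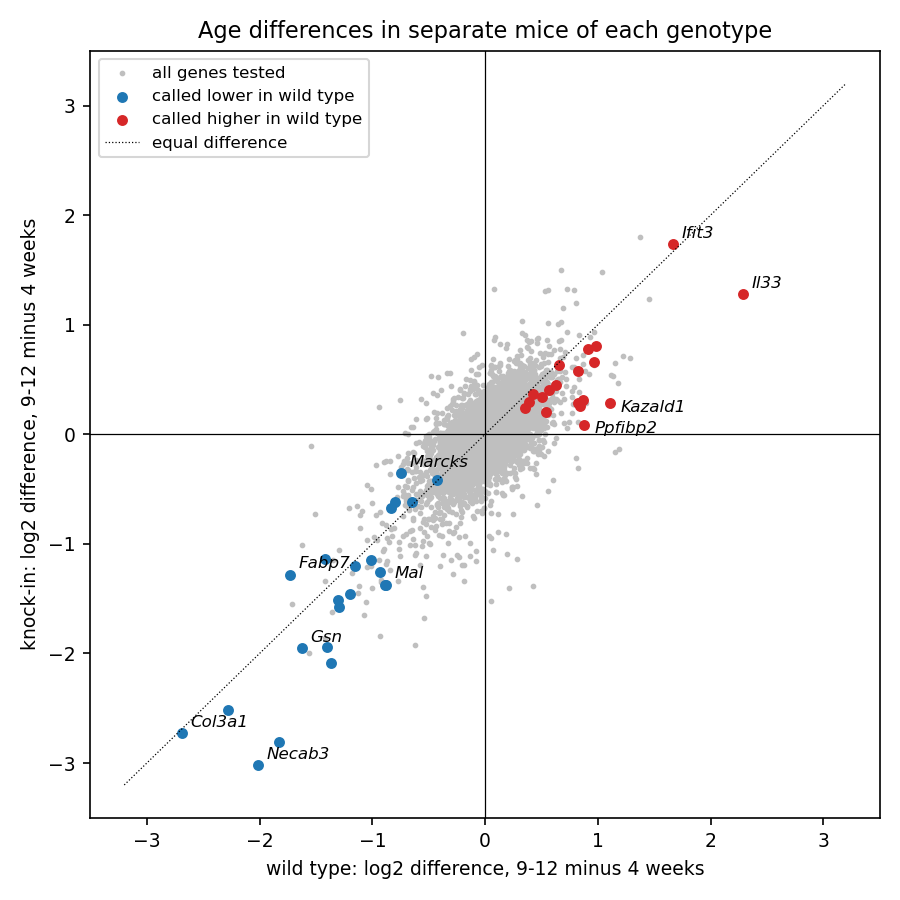
Age difference on the log2 scale in wild-type mice (horizontal axis) against that in Sca1 knock-in mice (vertical axis). Each grey point is 1 of 9452 genes, blue and red points are the 22 lower and 19 higher genes that passed in wild-type mice, and the dotted line marks equal differences. All 41 lie in the quadrants where both genotypes have the same sign, and Ppfibp2 and Kazald1 lie well below the dotted line.

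Sizes differed between genotypes without passing a test of that difference. Of the 22 falls 15 were larger in knock-in mice, and of the 19 rises 1 was larger, in genes that were chosen in wild-type mice. Fgf1 differed by 0.32 with age in knock-in mice (adjusted p = 0.287) against 0.86 in wild type, and Kazald1 by 0.28 (0.498) against 1.11. In the interaction of genotype and age no gene passed in limma, 211 had an unadjusted p under 0.05, and adjusted p began at 0.606. Lowest by p were Clstn2, a synaptic cadherin-related protein (0.11 in wild type and -0.89 in knock-in mice), and Th, tyrosine hydroxylase (0.46 and -0.65), both at an adjusted p of 0.606. The neuropeptide Cck (0.27 and -0.40), the neuronal surface protein Thy1 (0.37 and -0.27) and Dkk3 (0.80 and -0.21) followed, each at 0.999.

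The 9-week mice were set against both other ages. In all 41 genes the 9-week wild-type mouse lay nearer to the mean of the 12-week mice than to that of the 4-week mice, in 22 between the means and in 19 beyond the 12-week mean. That mouse helped to choose the genes, so the count is a description. The 9-week knock-in mouse did so only through the shared spread, and in all 41 genes it too lay nearer to its 12-week mates, in 17 between and in 24 beyond. For Ugt8a the wild-type means were 11.29 at 4 weeks and 9.91 at 12 weeks with 9.83 at 9 weeks, and in knock-in mice 11.38 and 9.45 with 9.42. Col3a1 lay between, with 7.37, 5.30 and 4.37 at 4, 9 and 12 weeks in wild-type mice and 7.22, 4.94 and 4.27 in knock-in mice.

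The mean of both genotypes' age differences, an alternative added after seeing the data, draws on 6 mice of each age. It called 575 genes, 336 higher (3.55%) and 239 lower (2.53%), and the 41 were among them. Leaving out each of the 12 mice in turn gave 223 to 693 genes, and 211 genes, 107 higher and 104 lower, passed in all 12 of these fits, the 41 among them. This mean holds the wild-type arrays, so it is no independent test of them. In it 15 of 26 myelin genes were lower and 0 higher, with Mbp, Mag, Mobp and Cnp among the lower ones. Of the cholesterol genes 9 of 20 were lower, and of the collagens and basement membrane genes 12 of 31. In all 12 fits that left out a mouse, 12 of the myelin, 6 of the cholesterol and 10 of the collagen genes passed, and Mbp did not. Of the choroid plexus list 4 of 14 were higher (Kcne2, Slc4a5, Cldn2 and Calml4), and of these Kcne2 and Cldn2 passed in all 12 of those fits. Of 16 immediate early genes Fos, Nr4a1, Nr4a2 and Dusp1 were lower and none higher, Fos not in all 12. Of 11 perineuronal net genes 3 were lower and none higher. They were Ncan, Tnc and Adamts4, which respectively build, organise and cleave the matrix of chondroitin sulfate proteoglycans. In wild-type mice alone none of the 11 passed, and 7 lay below 0 and 4 above, with a median of -0.27. Of 24 Purkinje cell and 13 interneuron genes none passed in the mean of both genotypes. Of 20 granule cell genes 3 were lower in it (Neurod1, Calb2 and Nrep), none of them in all 12 fits that left out a mouse.

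Several of the 41 genes had other probe sets. Above the filter, 39 such probe sets had the same sign as the probe set used and 3 the opposite one, 1 each of Cd93, Col3a1 and Nectin3. The 3 read 2.89 to 3.90 on average, while a brighter further probe set of Nectin3, at 7.32, was at -1.70. Some of the 39 were near 0. A bright one of Cnbp, at a mean of 10.05, was at 0.05. Dim ones of Aktip, Cab39l and Wwc1 were at 0.06, 0.07 and 0.04. With the probe sets of each gene averaged, 43 genes passed in limma, 30 of the 41 among them. Cnbp (adjusted p = 0.407), Aktip (0.238) and Rcan2 (0.209) did not pass there.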

How the data were processed

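Total RNA of 1 cerebellum per array was measured on Affymetrix mouse arrays, with each mouse a biological replicate in the labels. Per the submitters' processing notes GCOS 1.1 was used. The deposited table holds 1 log2 value per probe set, and the background correction, normalization and summary method are not given in the sources used here. As its logarithm has no stated base, 2 was assumed because the deposited values, controls aside, span 0.023 to 15.258. Values were used without rescaling.

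Of 22690 probe sets, 64 controls were left out. Of the remaining 22626, 20380 had 1 gene symbol in the supplied annotation and were used, 691 had several and 1555 none. They covered 12393 genes, each represented by its probe set with the highest mean. Probe sets in the lowest 25% by mean (under 2.80) were left out, which kept 9452 genes.

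limma 3.58.1 in R 4.3.3 (lmFit, then eBayes with an intensity trend) was fitted to 12 arrays with a mean per genotype and age group, with 8 residual and 4.23 prior degrees of freedom. Tests were two-sided. The threshold was an adjusted p (Benjamini-Hochberg, over all genes tested) under 0.05. Fits were checked on simulated data. An exact permutation test of 3 mice against 3 cannot go below 0.1, so none was used. The number of arrays limits the precision.

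Members and gene lists were chosen from general knowledge with earlier results of these data known. Named are the 12 largest rises and falls that passed, all list members that passed, 5 genes with the smallest p for the genotype difference, and fixed tissue markers. For most lists described, up to 4 members with the smallest p are named as well, and for some lists fewer or none. Others named by separate groups, by their place in the lists or near 0, or by the mean of both genotypes, were chosen after their values were seen. Alternatives covered scaling, filter, variance model, array weights, probe sets, age coding, a replicate block and leaving out each mouse.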

Additional observations from a re-analysis of the deposited data

How the results depend on the processing

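In the alternatives that gave 1 value per gene, none of the 41 genes changed sign in wild-type mice. Most of these could not have reversed one. The wild-type age groups did not overlap in any of the 41, so leaving out or weighting mice keeps the sign. Changes of filter or variance model leave the difference itself as it was. Signs were not compared in the fit of every probe set by itself. The count of 41 became 26 with quantile normalization, 209 with array weights, 63 with every probe set tested by itself and 4 with age as a slope per week. The mean of both genotypes, chosen after seeing the data, called 575. Leaving out 1 mouse gave 0 to 65 genes. In knock-in mice the count of 110 became 697 with array weights and 44 with the slope, and 23 to 117 without 1 mouse. The interaction count of 0 was 0 to 1 without 1 mouse, the 1 gene appearing without knock-in replicate 1. With the replicate block, numbers 1 to 6 as a random block, 40 genes passed in wild-type and 115 in knock-in mice. The labels do not pair same-numbered mice of the 2 genotypes, and the numbers were not taken as pairs. Their deviations correlated from -0.212 to 0.458, with the highest values at replicates 4 (0.413) and 5 (0.458). In both genotypes the age groups share no number. Anything that same-numbered mice had in common thus cannot be told apart from age, in wild-type or in knock-in mice. Ugt8a, Gsn, Fa2h, Mog, Col3a1, Col4a2 and Kazald1 passed in 4 of the 6 fits that left out a wild-type mouse. Where an arm kept 2 mice the spread was pooled over groups. The medians of the myelin, cholesterol, collagen and choroid plexus lists kept their sign in the alternatives run for them. With 3 mice per group, a gene that did not pass is not shown to be the same at both ages.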

Other observations

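Outside the lists described above, the genes with the largest differences in the mean of both genotypes that passed in all 12 fits without 1 mouse, and that did not pass in wild-type mice alone, were chosen after their values were seen. The lower ones included the endophilin Sh3gl3 (-1.64 ± 0.23, SE, limma adjusted p = 0.00267), the carbonic anhydrase Car9 (-1.63 ± 0.27, 0.00517), the metalloprotease Adam19 (-1.38 ± 0.22, 0.00465), the calcium-dependent kinase Camk4, a member of the thyroid hormone response list (-1.37 ± 0.23, 0.00654) and Phlda1 (-1.25 ± 0.16, 0.00186). In wild-type mice alone these differed by -1.42, -1.71, -1.42, -1.08 and -1.11. Klf10 was lower too, at -1.25 ± 0.25 (limma adjusted p = 0.0135), and at -1.35 in wild-type mice alone. The higher ones included the sterol-binding protein Stard5 (1.05 ± 0.16, 0.00399), the ADP-ribose hydrolase Macrod1 (1.03 ± 0.16, 0.00465), the growth factor Tgfb3 (0.87 ± 0.14, 0.00465) and the lysine-degrading enzyme Aass (0.82 ± 0.17, 0.0154), at 0.79, 0.73, 0.83 and 1.18 in wild-type mice. Of 13 thyroid hormone response genes 11 lay above 0 in wild-type mice, against 63.0% of all genes, with a median of 0.13. In knock-in mice 5 lay above 0 and 8 below, with a median of -0.02. None passed in limma in wild-type mice (3 higher and 1 lower at an unadjusted p under 0.05), and 1 was lower in knock-in mice.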
